A study of Mus musculus with 2 samples.

Results

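The genes of the mouse major histocompatibility complex (MHC), which mouse nomenclature names H2-, were examined in chromatin accessibility data together with their partners in antigen presentation. All protein-coding genes of GENCODE M21 whose symbol begins with H2- were taken, which were 34 genes, and 9 further genes were added by name (Ciita, Cd74, B2m, Tap1, Tap2, Tapbp, Nlrc5, Psmb8 and Psmb9). This gave 43 of 21911 protein-coding genes. Of these, 31 were grouped as class I, 11 as class II, and H2-Ke6, which encodes an enzyme of steroid metabolism and lies in the same part of the genome, was kept apart. Accessibility of a gene was the sum of counts over its body and the 2 kb upstream of it, given as CPM, that is, per 1000000 counts of the same set of nuclei.

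MHC class I molecules are present on nearly all nucleated cells, where a heavy chain paired with beta-2-microglobulin (B2m) shows peptides from inside the cell to cytotoxic T cells. These peptides are cut by the immunoproteasome (Psmb8, Psmb9), carried into the endoplasmic reticulum by the Tap1 and Tap2 transporter and loaded with the help of tapasin (Tapbp), and Nlrc5 is a transactivator of the class I genes. MHC class II molecules are found mainly on macrophages, dendritic cells and B cells and show peptides of engulfed material to helper T cells. Ciita is the master transactivator of class II genes, Cd74 encodes the invariant chain that guards the groove, and H2-DM and H2-O control the exchange of peptides. Ciita does not bind DNA itself and is recruited by factors bound to the X and Y boxes of class II promoters. Mammary macrophages reside in and around the ducts, and epithelial cells can express class II genes under interferon-gamma.

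The data were single-cell ATAC-seq, in which a transposase cuts open chromatin in single nuclei and the cuts are counted in peaks. Mammary gland organoids were made from C57BL/6J mice of the genotype shTRPS1.34 ki/+; CAG-rtTA3 tg/+, and both groups carried both alleles. For 7 days they received either doxycycline at 0.1 µg/ml, the inducer of an shRNA against Trps1 (DOX), or its solvent ethanol (EtOH). The question of the study was which chromatin regions open or close early after Trps1 depletion. The shRNA cassette sits in the Col1a1 locus and needs the transactivator rtTA3, driven by the ubiquitous CAG promoter, and not every cell need be induced. Doxycycline was given to DOX alone, so that its effect and that of the shRNA cannot be told apart. Each group was 1 library of the mixed cells of several mice, so no difference was tested against replicates, and all intervals are 95% intervals that cover counting error only. The sources disagree on the number of mice, and a legend of the study names wild-type mice, whereas the labels, which were followed, name the shRNA line.

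The DOX library held 3071 nuclei and 224762118 counts, and the EtOH library held 3104 nuclei and 211963715 counts, with 23 cell barcodes found in both. Clustering, done without the regions of the MHC genes, gave 5 clusters of epithelial and 2 clusters of immune nuclei, and 44 DOX and 23 EtOH nuclei of low depth were left out of both kinds. Immune nuclei were 41.7% of DOX (1282 nuclei, Clopper-Pearson interval 40.0% to 43.5%) and 9.09% of EtOH (282 nuclei, 8.10% to 10.2%). All 8 immune markers and all 10 macrophage markers had more accessibility in immune than in epithelial nuclei in both libraries, with the macrophage list summing to 734 and 796 CPM in immune nuclei of DOX and EtOH and to 209 and 191 CPM in epithelial nuclei. The list of B cell markers was not higher in immune nuclei (38.7 and 36.6 CPM against 68.4 and 66.9), and Cd79a and Cd79b had no region to count. The T cell list summed to 95.7 and 95.2 CPM in immune and 37.9 and 37.0 in epithelial nuclei, and the dendritic cell list to 340.1 and 351 against 164 and 152. Of 6 T cell markers only 3 were higher in immune nuclei, and Cd3e, Cd3g and Cd8a were lower there. Of 8 dendritic cell markers with a region, 7 were higher in immune nuclei. Most epithelial nuclei lay in different clusters in the libraries, since cluster 1, luminal progenitor-like, held 57 DOX and 1633 EtOH nuclei, and cluster 2, in which no lineage list led, held 1363 and 16. In cluster 2 the general epithelial list led with a median log2 fold of 0.494. The basal list was close behind with 0.488, ahead of the luminal progenitor list with 0.214. Clusters 5 and 6 were hormone-sensing luminal-like, and cluster 7 was led by basal markers with fibroblast markers second. At the promoters of Trps1, accessibility was 28.6 CPM in DOX and 22.7 CPM in EtOH epithelial nuclei and 58.5 and 59.1 CPM in immune nuclei, which does not measure its transcript.

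Class II promoters are known for their X and Y boxes and class I promoters for other sites, so stretches of 200 bases before the RefSeq start (build GRCm38.p6) are printed for 6 class II and 3 class I genes, each of which overlapped a region with a peak in both libraries. In class II genes, capitals mark a part of the X box, searched as NGNAAC, followed on the same strand after 10 to 35 bases by the core of the Y box, searched as TGATTGG.
H2-Aa (chr17:34287824-34288023, minus strand): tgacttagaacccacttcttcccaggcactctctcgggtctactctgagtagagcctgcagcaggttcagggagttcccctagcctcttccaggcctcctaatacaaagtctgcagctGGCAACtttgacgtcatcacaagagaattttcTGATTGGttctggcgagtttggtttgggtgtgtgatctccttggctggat
H2-Eb1 (chr17:34305667-34305866, plus strand): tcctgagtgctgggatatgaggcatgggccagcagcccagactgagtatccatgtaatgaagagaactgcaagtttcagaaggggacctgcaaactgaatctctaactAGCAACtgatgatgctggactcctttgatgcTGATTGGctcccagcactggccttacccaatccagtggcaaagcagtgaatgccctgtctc
H2-Eb2 (chr17:34325475-34325674, plus strand): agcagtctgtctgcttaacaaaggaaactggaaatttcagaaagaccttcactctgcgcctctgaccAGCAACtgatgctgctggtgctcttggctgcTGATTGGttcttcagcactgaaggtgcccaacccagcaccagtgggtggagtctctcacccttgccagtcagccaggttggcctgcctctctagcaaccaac
H2-DMb1 (chr17:34152991-34153190, plus strand): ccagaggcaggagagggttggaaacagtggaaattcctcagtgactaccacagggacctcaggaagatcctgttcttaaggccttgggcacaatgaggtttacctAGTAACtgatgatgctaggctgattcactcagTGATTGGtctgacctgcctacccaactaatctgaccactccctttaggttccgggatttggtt
H2-Ob (chr17:34238705-34238904, plus strand): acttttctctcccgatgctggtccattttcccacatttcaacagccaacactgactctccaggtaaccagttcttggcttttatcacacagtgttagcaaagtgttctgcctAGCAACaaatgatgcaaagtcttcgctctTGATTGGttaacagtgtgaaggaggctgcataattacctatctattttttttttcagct
H2-Oa (chr17:34092179-34092378, plus strand): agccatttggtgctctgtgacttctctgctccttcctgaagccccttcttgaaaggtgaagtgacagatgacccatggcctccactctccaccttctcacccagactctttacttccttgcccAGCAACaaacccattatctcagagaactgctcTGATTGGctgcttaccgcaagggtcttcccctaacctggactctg
In these 6 genes the gap between both parts was 23 to 26 bases. The pair, on either strand within 250 bases before the start, was found in 0.581% of 32851 promoters of the same length, NGNAAC alone in 79.4% and TGATTGG alone in 7.23%. The pair was not found for H2-DMa, which held no TGATTGG, or for H2-DMb2, which held TGATTGG without NGNAAC at that distance, and the RefSeq window of H2-DMb2 lay under no region. TGATTGG was also in class I promoters, among them H2-D1, H2-Q4, H2-T22 and Psmb9. The X part is short and common, so that its match describes letters and not a bound factor.

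In class I genes, capitals mark GGATTCCC (part of a kB site), TGACGCG (part of a CRE-like site), TGATTGG and an ISRE-like motif, a type of site bound by interferon regulatory factors, each on either strand.
H2-K1 (chr17:34000348-34000547, minus strand): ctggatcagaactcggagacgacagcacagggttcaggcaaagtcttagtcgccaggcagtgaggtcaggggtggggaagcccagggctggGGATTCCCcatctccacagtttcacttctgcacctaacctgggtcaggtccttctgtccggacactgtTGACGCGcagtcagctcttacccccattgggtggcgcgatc
H2-D1 (chr17:35262894-35263093, plus strand): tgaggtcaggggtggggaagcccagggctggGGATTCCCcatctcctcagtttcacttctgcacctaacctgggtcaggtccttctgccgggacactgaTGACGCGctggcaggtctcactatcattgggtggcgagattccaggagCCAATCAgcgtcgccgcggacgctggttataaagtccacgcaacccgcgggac
B2m (chr2:122147487-122147686, plus strand): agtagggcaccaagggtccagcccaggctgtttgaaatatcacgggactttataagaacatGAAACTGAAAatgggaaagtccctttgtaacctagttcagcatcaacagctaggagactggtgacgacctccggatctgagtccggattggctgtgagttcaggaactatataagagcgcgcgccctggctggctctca
GGATTCCC was in 0.834% and TGACGCG in 1.56% of all promoters, and H2-K1 and H2-D1 held both. The ISRE-like motif was in 2.98% of all promoters and, among the MHC genes with an entry, in B2m, H2-T22 and H2-T23. Of the 43 genes, 36 had a promoter in the table. The others were H2-Ab1, Ciita, Cd74, Nlrc5, Tap2, H2-Q1 and H2-T24.

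Over all nuclei, the class II genes were more accessible in DOX. Their summed accessibility was 515 CPM in DOX and 409 CPM in EtOH, a log2 ratio of 0.33 (0.31 to 0.35), which was 0.526 over regions on 1 gene only. All 11 genes had regions to compare, with a median log2 ratio of 0.60 beside 0.06 over all protein-coding genes. In DOX 3 of the 11 were higher by 2-fold or more and 0 were lower by as much, beside 3.26% of 17790 genes past 2-fold upward and 1.63% downward. The share of immune nuclei differed between the libraries, and 56.4% of the class II counts of DOX and 13.1% of those of EtOH came from immune nuclei, beside 39.0% and 7.07% of all counts in shared regions. CPM of a library cannot tell more nuclei of a kind from more accessibility per nucleus, so each gene is given below within the epithelial and the immune nuclei as well.

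The class II gene with the highest ratio over all nuclei was H2-Eb2, a little studied beta chain gene beside H2-Eb1, with 12.1 CPM in DOX and 3.92 CPM in EtOH (log2 ratio 1.63, 1.46 to 1.79). In immune nuclei it had 27.2 and 23.3 CPM and in epithelial nuclei 2.43 and 2.45 CPM, and both intervals of the ratio held 0. Next was H2-DMb2, a beta chain of the peptide exchange factor H2-DM, with 18.6 and 6.24 CPM over all nuclei (1.58, 1.45 to 1.71). Its immune nuclei had 37.8 and 41.0 CPM, so that the libraries lay close together there. Cd74, the invariant chain gene, had 56.5 CPM in DOX and 26.5 CPM in EtOH over all nuclei (1.09, 1.03 to 1.16). Its immune nuclei had 119 and 125 CPM, with a log2 ratio of -0.06 (-0.17 to 0.04), and its epithelial nuclei 16.0 and 19.0 CPM.

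The genes of the classical class II chains moved less. H2-Ab1, the beta chain of H2-A, had 62.2 CPM in DOX and 41.1 CPM in EtOH over all nuclei (0.60, 0.54 to 0.65), and its partner H2-Aa, the alpha chain, had 18.5 and 15.6 CPM (0.25, 0.15 to 0.34). H2-Eb1, the beta chain of H2-E, had 49.5 and 40.9 CPM (0.27, 0.22 to 0.33). Within immune nuclei H2-Ab1 had 103 and 112 CPM, H2-Aa 27.2 and 27.0 CPM and H2-Eb1 67.5 and 71.4 CPM. H2-Ab1 was the only class II gene whose interval in immune nuclei left out 0, on the lower side (-0.12, -0.23 to -0.01). The chains of the modulator H2-O were higher over all nuclei, H2-Oa with 7.42 and 4.19 CPM (0.82) and H2-Ob with 26.2 and 17.1 CPM (0.62), and in immune nuclei they had 15.6 and 16.5 CPM and 44.8 and 45.3 CPM. H2-DMb1 (18.4 and 19.1 CPM over all nuclei, -0.05) and H2-DMa (193 and 182 CPM, 0.09) were close to equal. The window of H2-DMa holds 3 regions that also lie on Brd2, a widely used gene, so that its level is not that of H2-DMa alone.

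**Figure D1:**
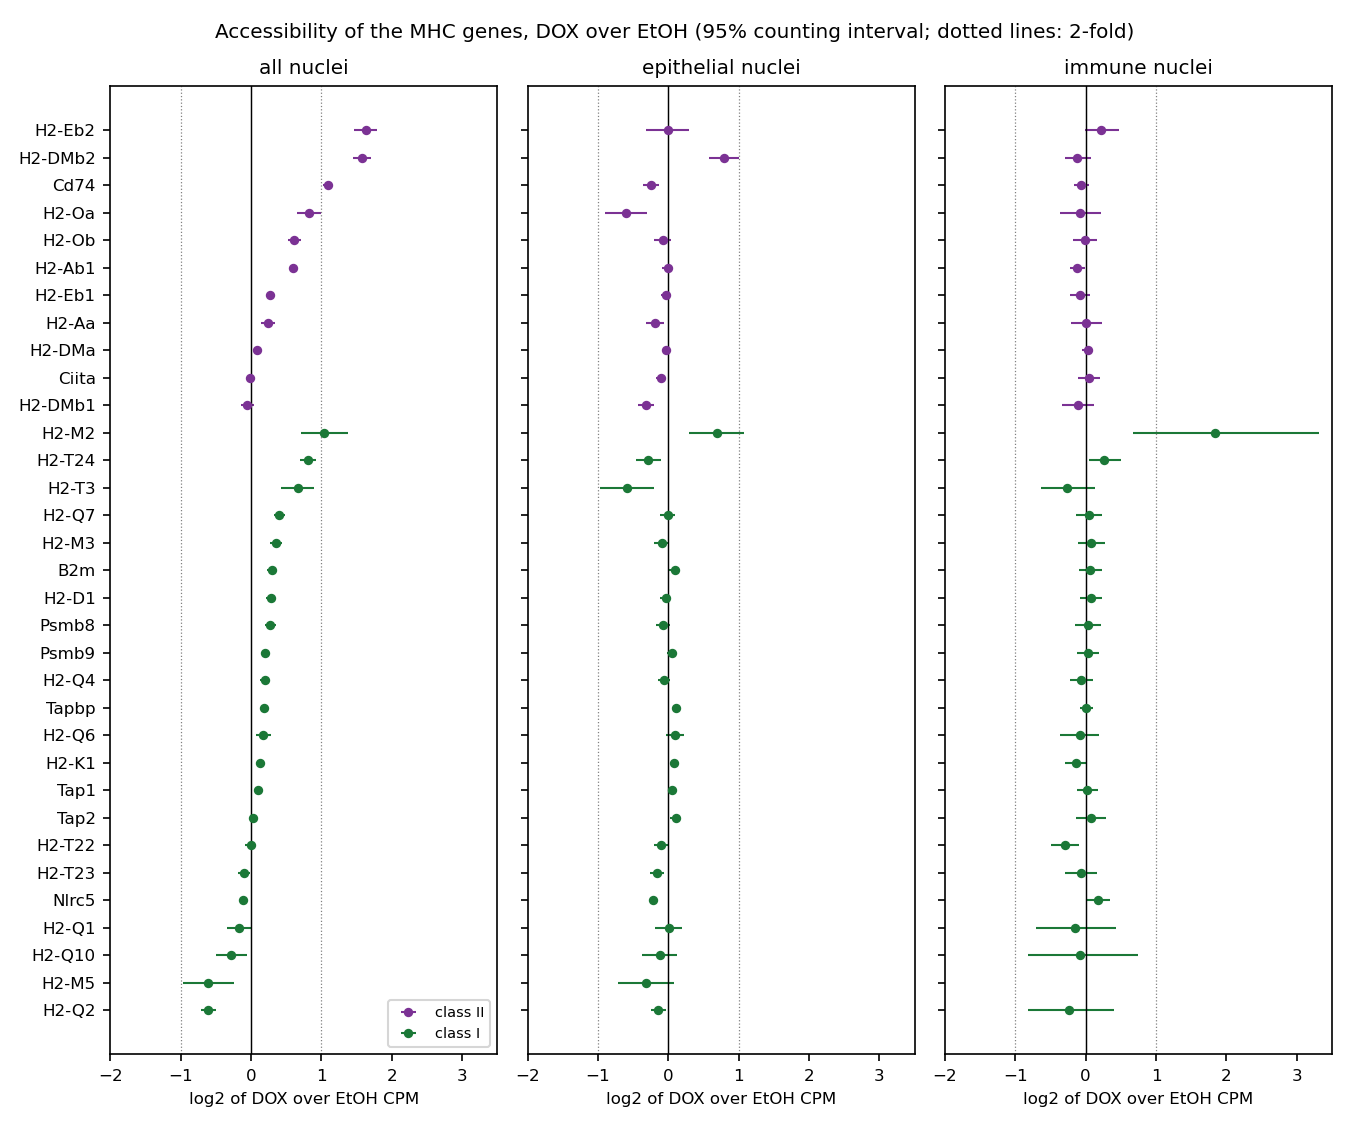
Log2 ratio of DOX over EtOH accessibility (CPM) of each class II (purple) and class I (green) gene with at least 100 counts, in all, epithelial and immune nuclei, ordered within a class by the ratio over all nuclei. Points are the ratios, bars the 95% counting intervals with 1 library per group, and dotted lines mark 2-fold. H2-Eb2, H2-DMb2 and Cd74 lie beyond 2-fold in all nuclei and inside it in both kinds of nuclei apart.

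Within the immune nuclei alone the class II genes were nearly level between the libraries. They summed to 744 CPM in DOX and 758 CPM in EtOH, a log2 ratio of -0.03 (-0.07 to 0.01). The ratios of the 11 genes ran from -0.12 to 0.22 with a median of -0.06, and the intervals of 10 of them held 0. None was 2-fold apart in either direction, beside 0.75% of 16529 genes past 2-fold upward and 0.163% downward. In the epithelial nuclei the class II genes summed to 365 CPM in DOX and 382 CPM in EtOH, a ratio of -0.07 (-0.09 to -0.04), and 10 of 11 were negative. Of 17714 genes compared in epithelial nuclei, 0.824% were past 2-fold upward and 0.779% downward, and 0 class II genes were in either set. With each cluster that held at least 20 nuclei of both libraries given equal weight, the epithelial ratio of class II was 0.000278.

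Several class II genes departed from the level of their class in the pooled epithelial nuclei. H2-DMb2 had 6.21 CPM in DOX and 3.603 CPM in EtOH (0.78, 0.57 to 1.00), which came from a region upstream of it, and over the regions within 1 kb of a TSS its ratio was -0.29. H2-Oa had 2.14 and 3.25 CPM (-0.60, -0.91 to -0.31), H2-DMb1 14.8 and 18.5 CPM (-0.32, -0.44 to -0.21) and H2-Aa 12.9 and 14.8 CPM (-0.19, -0.32 to -0.07). Cluster by cluster, H2-Oa was higher in DOX in cluster 1 (6.16 against 4.43 CPM) and cluster 6 (2.30 against 1.32). It was lower in cluster 5 (1.74 against 2.06) and cluster 7 (1.02 against 2.53). DOX counts of H2-Oa were few, with 22 in cluster 1, 18 in cluster 5, 16 in cluster 6 and 8 in cluster 7. The CPM intervals of the libraries overlapped in each of these clusters. H2-Aa had ratios of 0.15, -0.23, -0.01 and 0.08 in clusters 1, 5, 6 and 7, with every interval holding 0. H2-DMb1 was lower in DOX in each of these clusters, and its interval left out 0 in cluster 5 alone (-0.67, -1.07 to -0.30). Cd74 was lower in DOX over its whole window (-0.25, -0.36 to -0.14), and over the regions within 1 kb of a TSS its epithelial ratio was 0.09. By cluster the ratio of its whole window ran from -0.33 to -0.10 in clusters 1, 5, 6 and 7, with every interval holding 0. Clusters 5, 6 and 7, which both libraries filled, differed among themselves at H2-DMb2, with 1.55 and 1.54 CPM in cluster 5, 1.87 and 1.43 in cluster 6 and 9.81 and 9.04 in cluster 7. These were the DOX and EtOH values within each cluster, and cluster 7 exceeded clusters 5 and 6 in both libraries.

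The immune clusters differed from each other in class II accessibility more than the libraries did. Cluster 4, with C1qa, C1qb and Ccl12 among its leading genes, had 867 CPM in DOX and 859 CPM in EtOH, and cluster 3, with Fabp4, F7 and Wfdc17 among its leading genes, had 623 and 635 CPM. The intervals of the libraries overlapped within each cluster and those of the clusters did not overlap. Cd74 showed the same order with 149 and 153 CPM in cluster 4 and 90.0 and 89.9 CPM in cluster 3. H2-Aa had 37.3 and 34.2 CPM in cluster 4 and 17.3 and 18.4 CPM in cluster 3, which is near the 10.1 to 17.4 CPM of the epithelial clusters with at least 20 nuclei of the library. H2-Eb1 had 85.5 and 89.8 CPM in cluster 4 and 49.98 and 48.9 CPM in cluster 3. The genes were not used to form the clusters, but these were formed from the same nuclei, and no test was made.

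**Figure D2:**
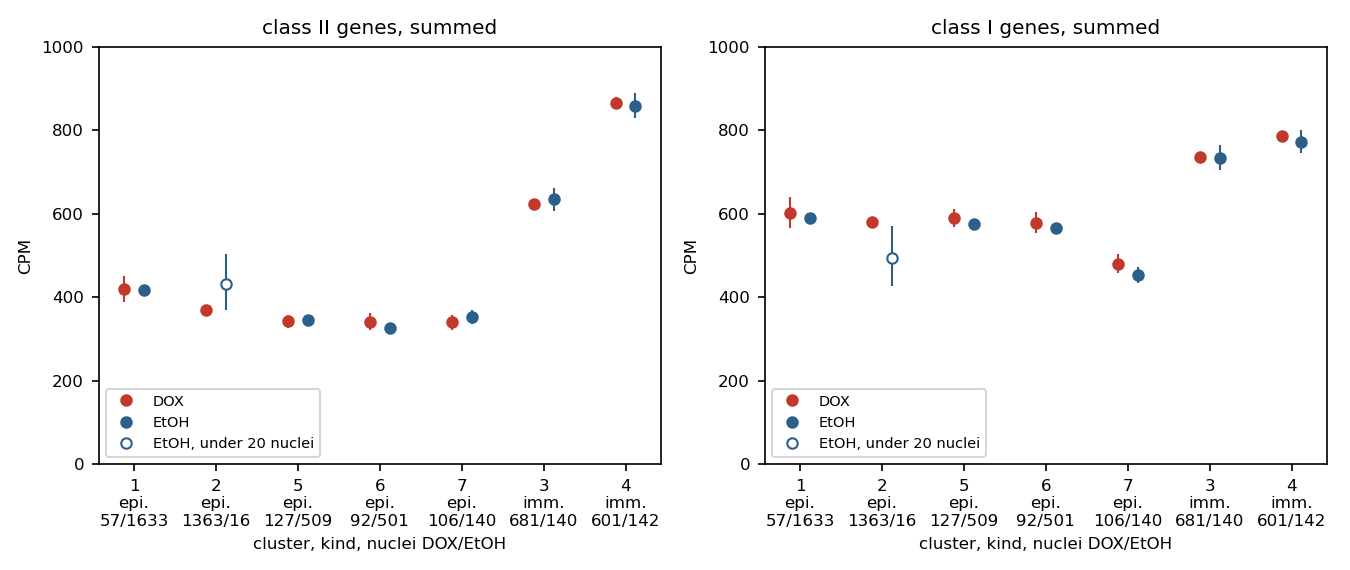
Summed accessibility (CPM) of the class II and class I genes in each epithelial (epi.) and immune (imm.) cluster, in DOX (red) and EtOH (blue), with 95% Poisson intervals as bars and the number of nuclei under each cluster. Open circles stand for fewer than 20 nuclei. In clusters 3 and 4 the DOX and EtOH points of class II nearly coincide, at 623 and 635 CPM and at 867 and 859 CPM.

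Class II accessibility in immune nuclei exceeded that in epithelial nuclei in both libraries. In DOX 7 of 11 class II genes were at least 2-fold higher in immune nuclei, and in EtOH 6 of 11, where 9.6% of genes in DOX and 9.35% in EtOH were at least 2-fold higher. None was at least 2-fold lower, where 20.1% in DOX and 20.7% in EtOH were. The median log2 ratio of immune over epithelial was 1.55 in DOX and 1.60 in EtOH for class II, and 0.32 and 0.44 for class I, beside 0.17 and 0.17 over all genes. In EtOH it was highest at H2-DMb2 (3.51) and H2-Eb2 (3.25), followed by Cd74 (2.71), and lowest at Ciita (0.09). Among class I genes H2-T3 (2.31), a nonclassical gene known in the intestine as TL, and H2-T24 (1.70) were the highest in EtOH, and H2-Q2 (-2.25) was the lowest.

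**Figure D3:**
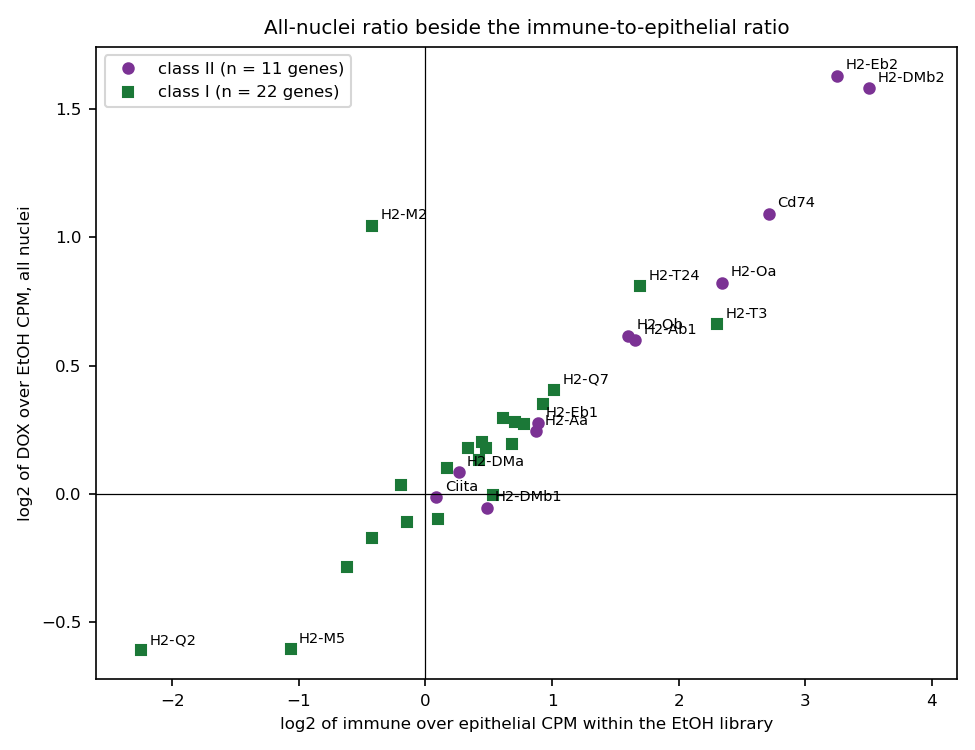
Log2 ratio of DOX over EtOH over all nuclei against the log2 ratio of immune over epithelial accessibility within the EtOH library, for 11 class II genes (purple circles) and 22 class I genes (green squares). Both axes use the EtOH counts of the same genes. H2-DMb2 and H2-Eb2 are at the upper right, H2-Q2 is at the lower left, and H2-M2 stands apart from the others with 1.04 on the vertical axis at -0.42 on the horizontal axis.

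The share of nuclei that carried a count at a region was taken as a further measure. Each nucleus was thinned to 10000 counts, which kept 1654 of 1745 DOX and 2692 of 2799 EtOH epithelial nuclei and 1247 of 1282 and 274 of 282 immune nuclei. At the promoter region of H2-DMb2, 25.5% (23.1% to 28.0%) of 1247 DOX and 27.7% (22.5% to 33.4%) of 274 EtOH immune nuclei had a count. In epithelial nuclei, the background for this region, it was 0.363% of 1654 and 0.446% of 2692. Without thinning the shares were 61.1% and 56.0% in immune and 1.66% and 2.11% in epithelial nuclei. At the promoter of Cd74, 27.3% and 28.8% of immune and 5.99% and 5.79% of epithelial nuclei had a count. At a promoter region of H2-Ab1 the difference between kinds was smaller, with 17.9% and 21.2% of immune and 11.4% and 11.6% of epithelial nuclei. The order was not the same at every class II gene. At a downstream start of H2-Eb1 (chr17:34309429-34310307), 8.26% and 4.38% of immune and 12.3% and 10.6% of epithelial nuclei had a count. At the region taken for H2-Ob the shares were nearly level, with 6.66% and 8.03% against 6.05% and 7.06%. Another region at a start of H2-Ob (chr17:34239620-34240460) had 14.4 and 11.0 CPM in immune and 0.583 and 0.306 CPM in epithelial nuclei. The whole window of H2-Ob had log2 ratios of immune over epithelial of 1.66 in DOX and 1.60 in EtOH. At H2-DMb1 the immune share was the higher in DOX and the lower in EtOH. The remaining class II genes had the higher share in immune nuclei in both libraries. The median depth before thinning was 74147 and 65876 counts in epithelial and 68588 and 51948 counts in immune nuclei.

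Ciita has several promoters, of which the first is known from dendritic cells and macrophages, another from B cells and the last from cells stimulated by interferon-gamma. Over its whole window Ciita was level over all nuclei (52.3 CPM in DOX and 52.7 CPM in EtOH, -0.01), while over regions within 1 kb of a TSS its ratio was 1.14. The first promoter (chr16:10479566-10480674) had 8.22 CPM in DOX and 9.23 CPM in EtOH immune nuclei and 0.350 and 0.440 CPM in epithelial nuclei, and 93.8% of its DOX counts came from immune nuclei. The region over the downstream start (chr16:10489128-10490231) had 7.45 CPM in DOX and 4.51 CPM in EtOH immune nuclei (0.72, 0.20 to 1.30) and 2.30 CPM in epithelial nuclei of both libraries. Its share of immune nuclei with a count after thinning was 7.06% (5.70% to 8.62%) in DOX and 3.28% (1.51% to 6.14%) in EtOH. By cluster the values at this region were 7.09 and 3.27 CPM in cluster 3, where the intervals did not overlap, and 7.81 and 5.53 CPM in cluster 4, where they did. An intronic region (chr16:10495803-10496670) had 12.7 and 12.6 CPM in immune and 0.303 and 0.231 CPM in epithelial nuclei. The region with the most counts in the Ciita window lies on Dexi, a neighbouring gene, and had 22.8 and 24.3 CPM in epithelial and 1.36 and 1.83 CPM in immune nuclei.

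**Figure D4:**
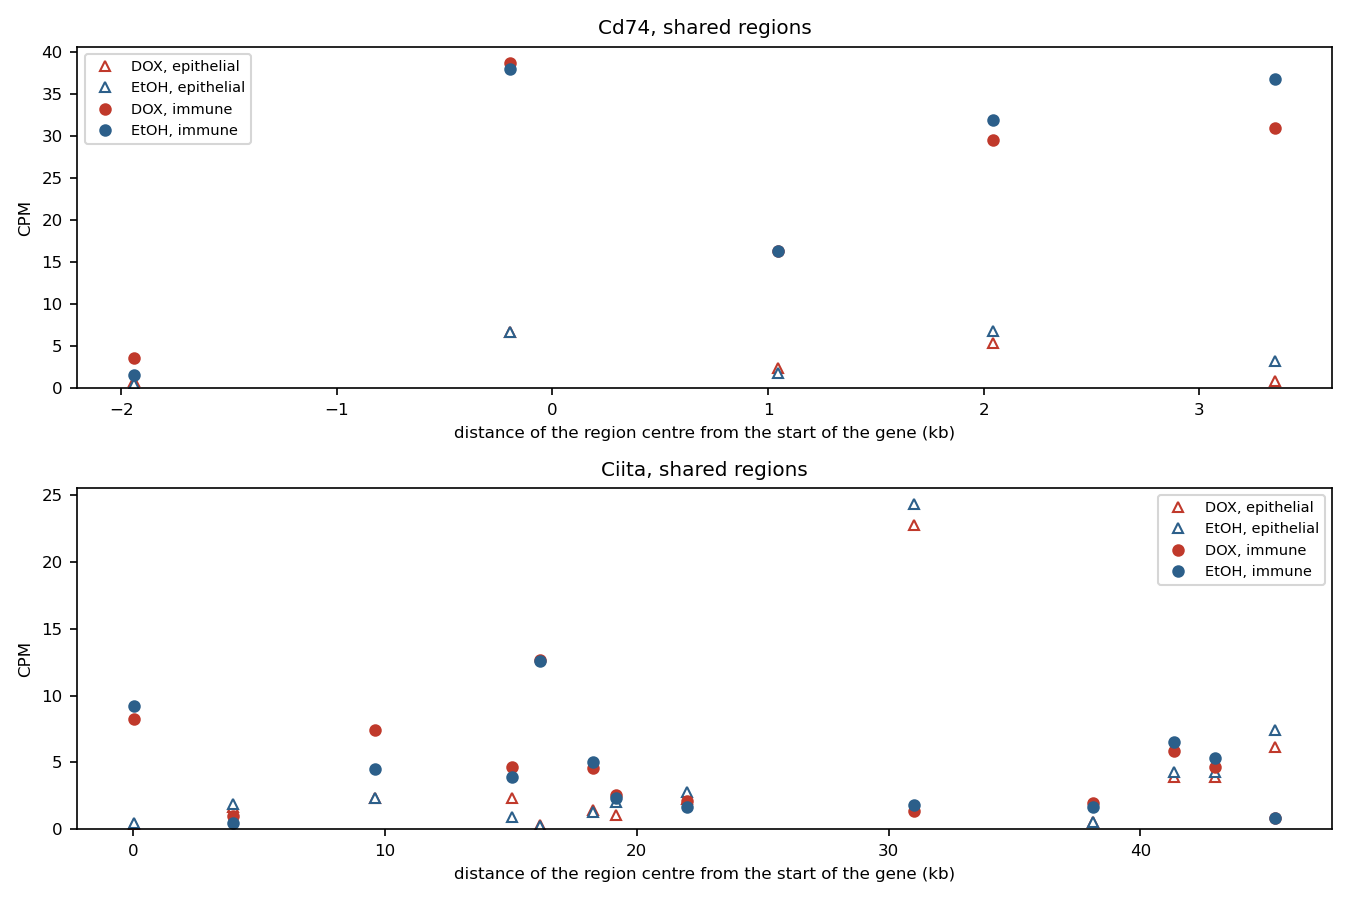
Accessibility (CPM) of each region shared by the libraries on Cd74 and Ciita against the distance of its centre from the start of the gene, in immune (filled circles) and epithelial nuclei (open triangles) of DOX (red) and EtOH (blue). At Cd74 the immune values exceed the epithelial ones at every region. At Ciita the first promoter and the intronic region 6.45 kb past the downstream start are open in immune nuclei and nearly closed in epithelial nuclei, and the region with 22.8 and 24.3 CPM in epithelial nuclei lies on Dexi.

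Of 66 regions on class II genes, 49 had a peak in both libraries, 13 in DOX alone and 4 in EtOH alone, beside 17% and 19.4% of all 275294 regions. Of the 49, 14 were higher by 2-fold or more over all nuclei and 0 lower by as much, where 13% and 13.4% of 174772 shared regions were higher and lower. In immune nuclei 1 of 47 was at least 2-fold higher, the region upstream of Cd74 (chr18:60801527-60802290, 3.57 and 1.55 CPM), and 0 were lower, where the shares over all regions were 5.73% and 0.662%. In epithelial nuclei 1 of 46 was higher and 1 lower, where the shares were 5.38% and 8.56%. The 13 class II regions called in DOX alone took 83.4% of their counts from immune nuclei, and the 4 called in EtOH alone 4.06%. The 5 regions with the highest ratios over all nuclei were all on class II genes, and 92.1% to 96.8% of their DOX counts came from immune nuclei. They were a region at a start of H2-Ob (chr17:34239620-34240460, 2.50), the intronic Ciita region (2.23), the H2-DMb2 promoter (chr17:34142710-34143740, 2.08), an intronic H2-Eb1 region (chr17:34311934-34312730, 2.02) and an exonic H2-Eb2 region (chr17:34340649-34341594, 1.95). Within immune nuclei their ratios were 0.39, 0.01, -0.13, -0.04 and 0.12, and the first of these alone had an interval above 0 (0.05 to 0.75).

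The lone epithelial regions beyond 2-fold on class II genes lay in introns of Cd74 and Ciita, and they were singled out after their values were seen. The Cd74 region (chr18:60806581-60807817), 3.29 kb from the nearest start, had 0.785 CPM in DOX and 3.26 CPM in EtOH epithelial nuclei, a log2 ratio of -2.05 (-2.51 to -1.62), and 31.0 and 36.8 CPM in immune nuclei. The DOX value was the lower in each epithelial cluster that both libraries filled, with 0.280 against 3.14 CPM in cluster 1, 0.773 against 3.18 in cluster 5, 2.16 against 3.86 in cluster 6 and 0.764 against 3.01 in cluster 7. The intervals did not overlap in clusters 1 and 5 and overlapped in clusters 6 and 7. DOX counts were few in each, with 1 in cluster 1, 8 in cluster 5, 15 in cluster 6 and 6 in cluster 7. The promoter of Cd74 itself had 6.66 and 6.71 CPM in epithelial nuclei. The Ciita region (chr16:10494695-10495533) had 2.36 CPM in DOX and 0.891 CPM in EtOH epithelial nuclei (1.41, 1.01 to 1.81) and 4.62 and 3.87 CPM in immune nuclei. Its DOX value was the higher in clusters 1, 5 and 6 (2.52 against 0.594, 2.61 against 1.28 and 3.30 against 1.34 CPM), all with overlapping intervals, and not in cluster 7 (0.637 against 0.777 CPM).

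**Figure D5:**
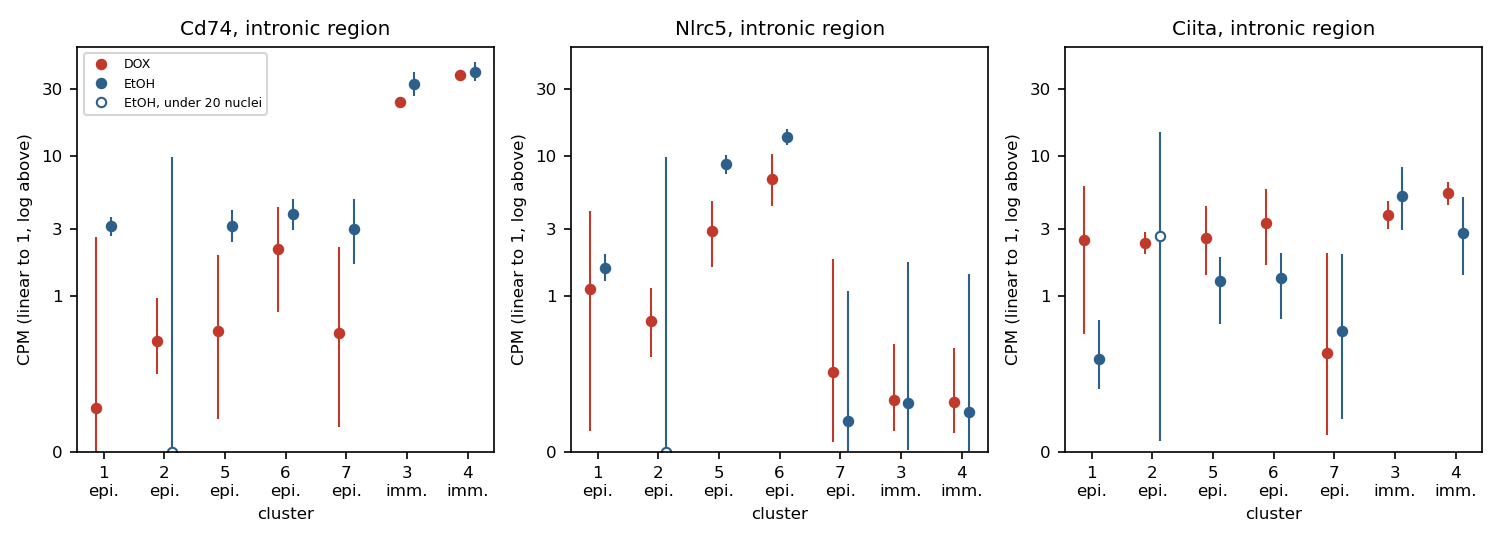
Accessibility (CPM, linear up to 1 and logarithmic above) of an intronic region of Cd74, Nlrc5 and Ciita in each epithelial (epi.) and immune (imm.) cluster, in DOX (red) and EtOH (blue), with 95% Poisson intervals. Open circles stand for fewer than 20 nuclei. The Cd74 region is lower in DOX in epithelial clusters 1, 5, 6 and 7, and the Nlrc5 region is highest in clusters 5 and 6.

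The class I genes differed less between the libraries. Over all nuclei they summed to 649 CPM in DOX and 588 CPM in EtOH, a log2 ratio of 0.14 (0.13 to 0.16), with a median over 22 compared genes of 0.18. With the median ratio of all genes set to 0 the summed ratio was 0.084. Of the 31 class I genes, 9 had no region with a peak in both libraries, all of them H2-M genes (H2-M1, H2-M9, H2-M11 and the 6 genes H2-M10.1 to H2-M10.6), whose products are known in the vomeronasal organ. In epithelial nuclei class I summed to 574.9 CPM in DOX and 574.5 CPM in EtOH (0.00, -0.02 to 0.02), and in immune nuclei to 761 and 756 CPM (0.01, -0.03 to 0.05). Of the 22, 1 gene, H2-M2, was at least 2-fold higher in DOX and 0 were lower by as much, beside 3.26% and 1.63% of all genes. H2-M2 had 2.29 CPM in DOX and 1.11 CPM in EtOH over all nuclei (1.04, 0.72 to 1.38), 1.83 and 1.13 CPM in epithelial nuclei and 3.03 and 0.845 CPM in immune nuclei. It fell short of 2-fold with nuclei thinned or with the median ratio of all genes set to 0. In immune nuclei this rested on few counts, with 4 EtOH counts in cluster 3 (4.56 and 0.624 CPM) and 8 in cluster 4 (1.46 and 1.03 CPM).

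The classical heavy chain genes were open in both kinds of nuclei. H2-K1 had 54.5 CPM in DOX and 49.8 CPM in EtOH over all nuclei (0.13, 0.08 to 0.19), 51.4 and 48.5 CPM in epithelial nuclei and 59.0 and 65.2 CPM in immune nuclei. H2-D1 had 40.7 and 33.5 CPM over all nuclei (0.28, 0.21 to 0.35), 31.1 and 32.0 CPM in epithelial and 55.1 and 52.3 CPM in immune nuclei. Their light chain gene B2m had 40.5 and 33.0 CPM over all nuclei (0.30, 0.23 to 0.36), 33.7 and 31.7 CPM in epithelial and 50.6 and 48.3 CPM in immune nuclei. At the promoters of H2-K1 and H2-D1, printed above, 34.5% and 25.2% of thinned DOX epithelial nuclei and 33.95% and 25.8% of EtOH epithelial nuclei had a count, so that these differed by less than the counting error.

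The genes of peptide supply differed little within each kind of nuclei, though the epithelial intervals of Tap2 and Tapbp left out 0. The promoter between Psmb9 and Tap1, which are read in opposite directions from it, gave Psmb9 44.8 CPM in DOX and 43.1 CPM in EtOH epithelial nuclei and 60.1 and 58.7 CPM in immune nuclei, and the same region is counted for Tap1. Tap1, with 1 further region, had 55.1 and 53.0 CPM in epithelial nuclei. Psmb8 had 22.1 and 23.3 CPM in epithelial and 41.0 and 40.0 CPM in immune nuclei. Tap2 had 36.3 and 33.8 CPM in epithelial nuclei (0.11, 0.03 to 0.18). By cluster its ratio was 0.03, 0.30, -0.18 and -0.44 in clusters 1, 5, 6 and 7. The interval left out 0 in cluster 5 (0.09 to 0.51) and cluster 7 (-0.81 to -0.08). An intronic region of Tap2 (chr17:34210309-34211215) had 13.7 and 9.51 CPM in epithelial nuclei (0.53, 0.39 to 0.67). Its DOX value was the higher in cluster 1 (3.36 against 2.10 CPM) and cluster 5 (24.8 against 16.7). It was the lower in cluster 6 (21.3 against 23.2) and cluster 7 (9.30 against 10.9), and the intervals overlapped except in cluster 5. That region had 2.11 and 0.423 CPM in immune nuclei, from 6 EtOH counts. Tapbp had 135 and 125 CPM in epithelial (0.11, 0.07 to 0.15) and 158 and 158 CPM in immune nuclei, and 3 of its 5 regions also lie on Daxx, Zbtb22 or Rgl2.

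Nlrc5 was 1 of 2 class I genes, with H2-T24, whose pooled ratio went opposite ways in epithelial and immune nuclei with both intervals leaving out 0. It had 46.3 CPM in DOX and 53.7 CPM in EtOH epithelial nuclei (-0.21, -0.28 to -0.15) and 54.6 and 48.5 CPM in immune nuclei (0.17, 0.01 to 0.34). Its promoter was level, with 13.7 and 13.6 CPM in epithelial and 17.9 and 17.2 CPM in immune nuclei, and over regions within 1 kb of a TSS the epithelial ratio was 0.01. The lowest ratio of all regions on MHC genes was at an intronic region of Nlrc5 (chr8:94455913-94456873), with 0.927 CPM in DOX and 4.84 CPM in EtOH over all nuclei (-2.38, -2.71 to -2.07). In epithelial nuclei it had 1.32 and 5.20 CPM (-1.98, -2.33 to -1.64), and in immune nuclei 0.325 and 0.282 CPM. It was most open in the hormone-sensing luminal-like clusters, with 2.90 CPM in DOX and 8.76 CPM in EtOH in cluster 5 and 6.90 and 13.6 CPM in cluster 6, and there the intervals did not overlap. These clusters held 127 and 92 DOX nuclei against 509 and 501 EtOH nuclei. In cluster 1 the region had 1.12 CPM in DOX and 1.60 CPM in EtOH, and in cluster 7 it had 0.510 and 0.194 CPM, all with overlapping intervals. The pooled epithelial ratio was taken over clusters that the libraries filled unequally. Another intronic region (chr8:94436648-94437698) had 3.30 and 1.62 CPM in immune nuclei (1.03, 0.16 to 2.04) and 0.458 and 0.607 CPM in epithelial nuclei.

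Among the other class I genes, H2-T24 (0.81) and H2-T3 (0.66) had the next ratios over all nuclei after H2-M2, and H2-Q2 (-0.61), H2-M5 (-0.60) and H2-Q10 (-0.28) the lowest. H2-T24 had 31.2 CPM in DOX and 25.9 CPM in EtOH immune nuclei and 6.57 and 8.001 CPM in epithelial nuclei, and H2-T3 had 8.11 and 9.72 CPM and 1.31 and 1.97 CPM. Cluster by cluster, the DOX value of H2-T24 was the higher in cluster 1 (15.7 against 9.20 CPM, 0.77, 0.16 to 1.32). The same held in cluster 6 (9.91 against 5.76 CPM, 0.78, 0.18 to 1.36) and cluster 7 (7.52 against 3.30 CPM). Cluster 5 was near level (7.82 against 8.01 CPM), and cluster 2, with most DOX epithelial nuclei, had 5.80 CPM in DOX. H2-Q2 was open in epithelial nuclei, with 17.3 and 19.1 CPM, and had 3.41 and 4.02 CPM in immune nuclei. H2-M5 and H2-Q10 had at most 3.79 CPM in any set of nuclei. The H2-Q, H2-T and H2-M genes are close copies of each other, and reads that fit several copies could be placed on the wrong one or lost, so that their values are less certain than those of the other genes. H2-Ke6 had 32.7 and 31.6 CPM over all nuclei (0.05).

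Of the regions on class I genes, 49 of 68 had a peak in both libraries, 9 in DOX alone and 10 in EtOH alone, again beside 17% and 19.4% of all regions. Of the 49, 5 were higher by 2-fold or more over all nuclei and 2 lower by as much, beside 13% and 13.4% of all shared regions. In epithelial nuclei 0 were higher and 2 lower, the Nlrc5 region and one upstream of B2m that also lies on Patl2 (chr2:122145177-122146198, 0.225 and 0.596 CPM), beside 5.38% and 8.56%. In immune nuclei 3 of 39 were higher and 0 lower, which were on Tap2, H2-M2 and Nlrc5, beside 5.73% and 0.662%. After the Nlrc5 region, the lowest ratios over all nuclei were upstream of H2-T3 (chr17:36192035-36192805, -1.02), in an exon of H2-T23 (chr17:36030001-36030856, -0.90), at the Dexi end of the Ciita window (chr16:10524943-10525854, -0.77) and upstream of H2-T23 (chr17:36034817-36035918, -0.70). In epithelial nuclei these were -0.80, -0.47, -0.27 and -0.65. At most 34.3% of their DOX counts came from immune nuclei.

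Other genes of the pathway, 52 with counts in 5 lists, followed the same division. Over all nuclei 4 of them were at least 2-fold higher in DOX and 0 lower, beside 3.26% and 1.63% of all genes. All 4 were in the list of class II processing and surface molecules, of which 12 were compared with a median of 0.85. The highest were Cd83 (71.4 and 22.1 CPM, 1.69) and Cd86 (64.7 and 27.2 CPM, 1.25), surface molecules of antigen-presenting cells, and the lowest were Azgp1 (-0.39) and Mx1 (-0.19). The medians over all nuclei were 0.12 for 16 regulators such as Rfx5, 0.10 for 9 genes of class I loading, 0.24 for 5 MHC-like genes outside the complex and 0.13 for 10 interferon targets. In epithelial and immune nuclei apart, 0 of the 52 were 2-fold apart in either direction, with medians of 0.01 and -0.02. Of all genes 0.824% were higher and 0.779% lower in epithelial nuclei, and 0.75% and 0.163% in immune nuclei. Cd83 had 164 CPM in DOX and 171 CPM in EtOH immune nuclei, and Cd86 had 134 and 140 CPM. The lowest epithelial ratio was at Mx1, an interferon-induced antiviral gene, with 6.55 CPM in DOX and 11.4 CPM in EtOH (-0.80, -0.96 to -0.63). Next was March1, of the class II list, with 9.96 and 16.9 CPM (-0.76, -0.89 to -0.63). Both ratios pool epithelial clusters that the libraries filled unequally. The 10 interferon targets as a list had a median of -0.04 in epithelial nuclei and 0.05 in immune nuclei, and 4 and 7 of them were positive.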

How the data were processed

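Single-nucleus ATAC-seq of 1 DOX and 1 EtOH library was used. For each library the authors deposited whole-number counts of transposition events per peak and nucleus, not normalized, with peaks and barcodes. Per the file headers they were made with Cell Ranger ATAC 2.0.0, whereas the study's methods name another version. The submitters' notes give build mm10, and 0 peaks ended beyond a GRCm38 chromosome. Peaks were called in each library alone, so a region without a peak has no count there.

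Peaks overlapping by at least 1 bp were merged, and shared regions, which held 94.5% (DOX) and 94.7% (EtOH) of counts, were summed per gene and scaled to CPM of the counts of that set of nuclei in shared regions. Most counts come in pairs from 1 fragment, so intervals (exact conditional binomial for ratios, Poisson for CPM, Clopper-Pearson for shares) used counts divided by 2. Ratios needed 100 counts over both libraries. With 1 library per group no test was made, and 2-fold is a size rule. Nuclei were clustered by TF-IDF, LSI components 2 to 30 and Leiden (15 neighbours, resolution 0.5, seed 1). In the main values no nucleus was left out as a doublet. An alternative left out the 5% of nuclei of each library that most resembled simulated doublets. Named were all class II genes, the class I partners, H2-K1, H2-D1, the 3 highest and 3 lowest of the others, the 5 highest and 5 lowest regions and the Ciita promoters. Genes and lists were chosen with earlier results of these data known. The ratio was tested on simulated data. Tools were Python 3.11.15, numpy 2.4.6, scipy 1.17.1, pandas 2.3.3, scikit-learn 1.9.0, igraph 0.11.9, leidenalg 0.10.2 and matplotlib 3.10.9.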

Additional observations from a re-analysis of the deposited data

Results flagged for a closer look

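For 2 class I genes the ratio of DOX over EtOH went one way in the pooled epithelial and the other way in the pooled immune nuclei, with both counting intervals leaving out 0. These were Nlrc5, with -0.21 in epithelial and 0.17 in immune nuclei, and H2-T24, with -0.29 in epithelial and 0.27 in immune nuclei. The pooled epithelial ratio of H2-T24 was not that of its clusters, since the DOX value was the higher in clusters 1, 6 and 7. Its interval left out 0 in cluster 1 (0.77, 0.16 to 1.32) and in cluster 6 (0.78, 0.18 to 1.36). With 1 library per group the difference between the kinds of nuclei was not tested.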

How the results depend on the processing

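No paired analysis was possible because DOX and EtOH are 1 library apiece, and for the same reason no library could be left out. Of 100 alternative values of the 10 class results, 20 moved beyond the counting interval or by over 1.5 times, and 0 were classed as reversed. Sign changes of small ratios, which are among the values below, were not classed as reversed. Over all nuclei, class I (0.14) became 0.084 with the median ratio of all genes set to 0, 0.171 within 1 kb of a TSS, 0.105 with each nucleus counted once per region, 0.104 with all counts in a library's own peaks and 0.111 with regions on 1 gene window only. Class II over all nuclei (0.33) became 0.271 with the median set to 0, 0.388 within 1 kb of a TSS, 0.391 in own peaks and 0.526 with regions on 1 gene only. In epithelial nuclei, class I (0.00) became -0.026 with each nucleus counted once, -0.049 with regions on 1 gene only and 0.043 with equal weight of clusters, and class II (-0.07) became -0.041 within 1 kb of a TSS, -0.030 in own peaks and 0.000278 with equal weight. In immune nuclei, class I (0.01) became -0.036 with each nucleus counted once and -0.106 in own peaks, and class II kept within its interval under all 11 alternatives. The class I genes at least 2-fold higher (1) became 0 with the median set to 0, 2 within 1 kb of a TSS and 0 with nuclei thinned. The class II genes at least 2-fold higher were 2 to 4. The cause of these shifts was not tested. Of 356 alternative values of named genes, 46 moved and 0 reversed a 2-fold call. Few counts limit the immune comparison of single regions, such as that of Tap2 with 6 EtOH counts.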
